A study of Schizosaccharomyces pombe with 2 samples.

Results

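The genes described here encode proteins of the large subunit of the cytosolic ribosome of the fission yeast Schizosaccharomyces pombe. They are the array rows with a signal above 0 in both arrays whose platform symbol is written in lower case, names 1 gene and begins with rpl or rpp and a digit. The rule found 74 genes, measured by 75 probe sets, among 2896 genes that a probe set of the array names singly and 4999 S. pombe probe sets above 0. The reference annotation lists all 74 as protein-coding. The study compared SD5 (strain ST3479), mating type h-, whose subtelomeres were deleted, with the wild-type strain JP1225, also h-. Both were growing exponentially at 32 °C in YES (rich medium made from yeast extract), and polyadenylated RNA was labelled from its 3′ end and hybridised to 1 array per strain. There were no replicates, so no test was possible, and every ratio describes this pair of arrays and not the strains in general. Which subtelomeres SD5 lacks, and whether it is 1 clone, the sources used here do not say.

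The large subunit joins amino acids into protein. Its RNA forms the catalytic centre, and its proteins fold that RNA, line the tunnel through which the new chain leaves, and build the flexible stalks that recruit elongation factors and release spent tRNA. Fission yeast carries several of these proteins as paralogs, near-identical genes at separate places in the genome, whose symbols share the protein's number and end in a 2-digit copy number. Ribosomal protein mRNAs are among the most abundant messages of a growing yeast cell, and their level is known to follow growth rate and nutrient signals.

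The 74 genes stood for 43 proteins. Of these, 23 were represented by 2 paralogs, 4 by 3 paralogs and 16 by 1 gene. The reference holds 9 further large subunit protein genes with such symbols. Of these, 5 appear only on 4 rows that the platform assigns to more than 1 gene and that the rule leaves out, and rpl1701, rpl2001, rpl2002 and rpl35A02 were not analysed here. Centred log2 ratios of those 4 shared rows ran from 0.011 to 0.14. The reference genes rpp1, rpp21 and rpp40, whose names are used for subunits of RNase P, are not among the members. The array also carries 12 budding yeast probe sets with such symbols in capitals, and all 12 were at 0 in both arrays.

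All 74 genes had signals far above background in both arrays, and these signals hardly differed between SD5 and the wild-type. Signals ran from 3439 to 10974 in SD5 with a median of 7815, against 4085 to 11672 with a median of 8640 in the wild-type. The median of all S. pombe probe sets was 998 in SD5 and 1168 in the wild-type. The background, set by 79 probe sets picked by name as having no S. pombe target, was 26.6 and 17.7. In SD5, 67 of the 74 genes were among the 250 brightest probe sets, and in the wild-type 67 were as well. Signals of different probe sets do not rank mRNA amounts, since probes differ in brightness. Whether signals this bright still rise in proportion to mRNA was not tested, so differences in mRNA may be larger than those in signal.

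As deposited, each of the 74 genes had a lower signal in SD5, between 0.842 and 0.988 of its wild-type signal. Most probe sets were shifted in the same way: the median of all S. pombe probe sets above background in both arrays lay at 0.869-fold (-0.20 on the log2 scale). Ratios below are log2 of SD5 over wild-type after that shift was removed, which is called centring. After centring the 74 genes ran from 0.969-fold to 1.14-fold, with a median log2 ratio of 0.070 (1.05-fold) and a standard deviation between genes of 0.046. The centred log2 ratio was above 0 for 68 of the 74 genes and below 0 for 6, against 49.4% of the 4905 S. pombe probe sets with a ratio that lay above 0. The sign depended on scaling: without centring all 74 were below 0 (median -0.13), and after loess normalization, which removes a trend of the ratio with signal, 45 were above 0 and 29 below (median 0.0063). After quantile normalization, which gives both arrays the same distribution of signals, 38 were above 0 and 33 below (median 0.0024). Counts of genes above 0 in a group are therefore given with their values after both, and without centring every such count above 0 is 0.

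No member reached a log2 ratio of 0.32 in size, the smaller of the fold sizes used here, in either direction. Of all S. pombe probe sets with a ratio, 1.71% were at least that much higher in SD5 and 2.71% at least that much lower, and 0.877% differed by 2-fold or more, where again no member was found. Most S. pombe probe sets were dimmer than the members, and ratios spread more at low signal, as given below. The share among probe sets as bright as the members was not counted, so the absence is not shown to be particular to these genes. A large loss of signal was measurable on these arrays, which does not show how small a difference could be seen. The galactokinase gene gal1, which lies near the right end of chromosome II, had a signal of 11.5 in SD5, below background, against 1404 in the wild-type, at least 45.8-fold lower. Whether gal1 is deleted in SD5 was not tested.

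**Figure D1:**
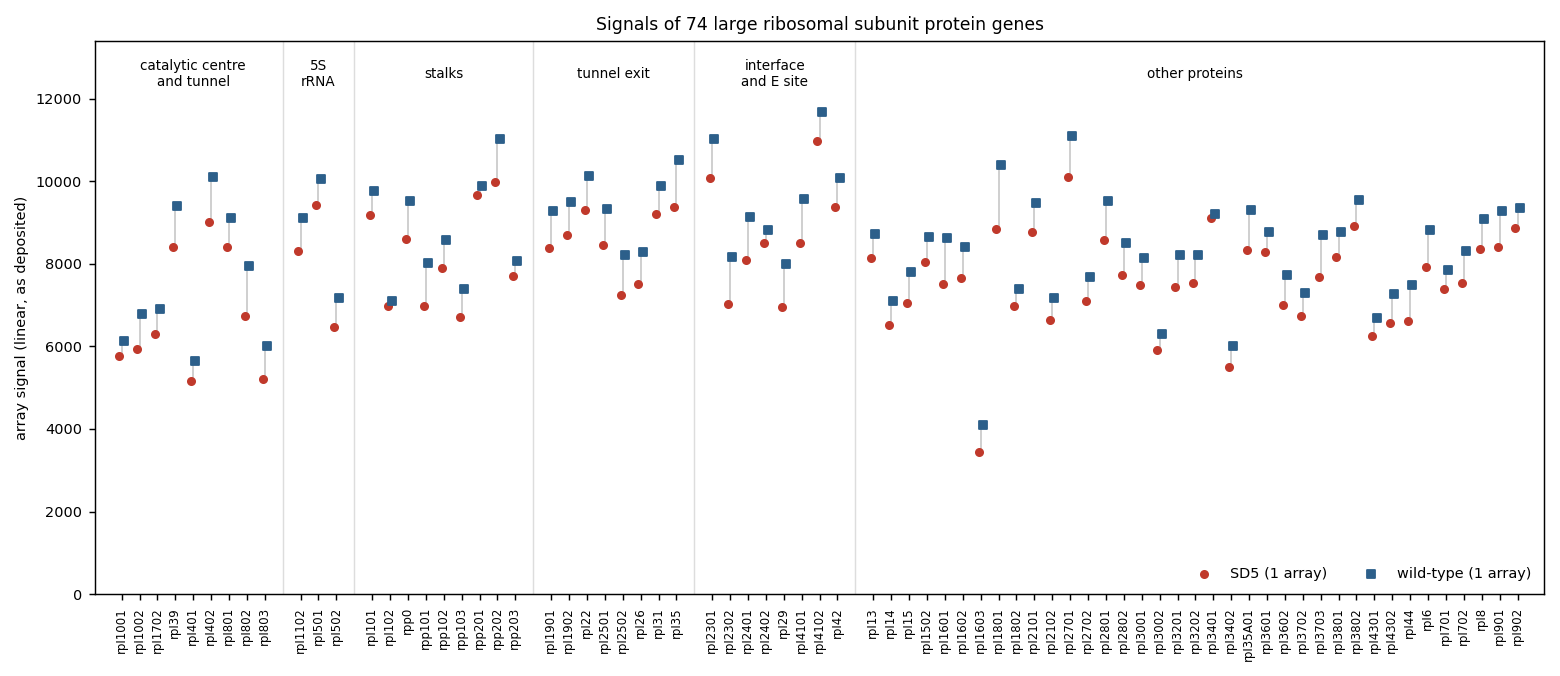
Signal of each of the 74 genes (vertical axis, linear, as deposited) in the SD5 array (red circles) and the wild-type array (blue squares), with a grey line joining the pair. Genes are grouped by the place of the protein in the subunit, and those assigned to no such place come last. Each gene lies lower in SD5, by similar proportions, and rpl1603 is the dimmest at 3439 in SD5 and 4085 in the wild-type.

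The order of the genes by signal was nearly the same in both arrays, which multiplying an array by a factor does not change. Across the 74 genes, which are not independent replicates, Spearman's rho between the SD5 and wild-type signals was 0.98. The place of a gene in this order moved by a median of 2 places and at most 14. The largest move was that of rpl3401, which was 12th of the 74 in SD5 and 26th in the wild-type.

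The catalytic centre and the tunnel were represented by 9 genes, with a median log2 ratio of 0.045 and 7 above 0 (4 after loess and 4 after quantile normalization, with medians of -0.022 and -0.027). The uL2 family lies next to the peptidyl transferase centre and has 3 copies, rpl801, rpl802 and rpl803. The signals of rpl801 (SPOM_SPAC1F7.13C) were 8417 in SD5 and 9103 in the wild-type, a log2 ratio of 0.090. Its copy rpl802 (SPOM_SPBC2F12.07C) had 6728 in SD5 and 7951 in the wild-type (-0.038), the second lowest ratio of all members. For rpl803 (SPOM_SPBC839.04) the signals were 5205 in SD5 and 6010 in the wild-type (-0.0042). Within this family 1 copy thus lay above 0 and 2 below it, over a span of 0.13.

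The paralogs rpl401 and rpl402 encode a protein that reaches into the exit tunnel. The rpl401 signal was 5168 in SD5 and 5655 in the wild-type (0.073), and that of rpl402 was 9014 in SD5 and 10102 in the wild-type (0.039). Also in the tunnel wall is the product of rpl1702, with 6287 in SD5 and 6913 in the wild-type (0.066), and that of rpl39, with 8417 in SD5 and 9393 in the wild-type (0.045). The protein of rpl1001 and rpl1002 joins the subunit late in its assembly, close to the catalytic centre. Here rpl1001 had 5759 in SD5 and 6124 in the wild-type (0.11), while rpl1002 had 5926 in SD5 and 6773 in the wild-type (0.010). The small 5S RNA of the large subunit is bound by the products of rpl501, rpl502 and rpl1102, whose ratios were 0.11, 0.054 and 0.070.

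The stalks were represented by 9 genes, of which all 9 had a ratio above 0 (median 0.085), against 6 of 9 after loess (median 0.022) and 6 of 9 after quantile normalization (median 0.017). They held 3 of the 6 highest ratios of all members: rpl102, rpp201 and rpp203. The stalk that guides tRNA out of the ribosome is built on the protein of rpl101 and rpl102. The rpl102 (SPOM_SPBC30D10.18C) signal was 6972 in SD5 and 7095 in the wild-type, a log2 ratio of 0.18 (1.13-fold). For rpl101 (SPOM_SPCC1183.08C) it was 9179 in SD5 and 9771 in the wild-type (0.11).

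The second stalk recruits elongation factors, and consists of P0, which anchors it, and of the small acidic proteins P1 and P2 bound to P0. The gene of P0, rpp0 (SPOM_SPCC18.14C), had 8600.3 in SD5 and 9515 in the wild-type (0.057). Among the P1 genes, rpp101 had 6977 in SD5 and 8006 in the wild-type (0.0046). The P1 copy rpp102 had 7909 in SD5 and 8585 in the wild-type (0.085). The remaining P1 copy, rpp103, had 6710.2 in SD5 and 7387 in the wild-type (0.065).

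Of the P2 genes, rpp201 (SPOM_SPBP8B7.06) had 9664 in SD5 and 9889 in the wild-type (0.17, or 1.13-fold). The signal of rpp202 was 9975 in SD5 and 11009 in the wild-type (0.061). That of rpp203 was 7692 in SD5 and 8061 in the wild-type (0.14). All P1 copies thus had lower ratios than rpp201 and rpp203, while rpp202 and P0 lay within the range of the P1 copies. No replicate error is available to set such differences against.

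At the mouth of the tunnel, where factors for folding and secretion dock, 8 genes had ratios between 0.022 and 0.097 (median 0.061), all 8 above 0. After loess 4 were (median -0.0021), and after quantile normalization 1 was (median -0.012). The docking protein itself is encoded by rpl2501, with 8445 in SD5 and 9318 in the wild-type (0.061), and rpl2502, with 7235 in SD5 and 8203 in the wild-type (0.022). Another protein of the exit, that of rpl35, had 9383 in SD5 and 10501 in the wild-type (0.041), and that of rpl31 had 9194 in SD5 and 9893 in the wild-type (0.097). The paralogs rpl1901 (0.056) and rpl1902 (0.074) differed by 0.018.

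The proteins of the subunit interface and of the E site, through which spent tRNA leaves, were represented by 8 genes with a median of 0.054 and 6 above 0 (3 after loess and 2 after quantile normalization, both with a median of -0.018). They included rpl4102, whose very short protein bridges the subunits in the assembled ribosome and whose probe set was the brightest of all 4999 in both arrays, with 10974 in SD5 and 11672 in the wild-type (0.11). Its copy rpl4101 had 8506 in SD5 and 9565 in the wild-type (0.034). For rpl2402 (SPOM_SPCC330.14C), whose protein joins late and forms another bridge, the signal was 8493 in SD5 and 8821 in the wild-type (0.15). Its copy rpl2401 had 8103 in SD5 and 9135 in the wild-type (0.030). The E site protein gene rpl42 had 9364 in SD5 and 10086 in the wild-type (0.096).

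In the same group rpl2301 had 10067 in SD5 and 11011 in the wild-type (0.074), while rpl2302 had 7023 in SD5 and 8156 in the wild-type (-0.012). The single-copy gene rpl29 had 6952 in SD5 and 8006 in the wild-type, a ratio just below 0 (-0.00029). Both rpl2302 and rpl29 are among the 6 lowest ratios. After loess rpl2301 lay at -0.0026 and rpl2302 at -0.070, both below 0.

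The other 37 genes were those assigned to none of the places above. They had a median of 0.078, with 35 above 0 (25 after loess and 24 after quantile normalization, with medians of 0.019 and 0.011). Their range, from -0.045 to 0.19, spans that of all 74. The highest ratio belonged to rpl3401 (SPOM_SPAC23A1.08C), with 9100.2 in SD5 and 9212 in the wild-type (0.19, or 1.14-fold). Next in this group were rpl902, with 8871 in SD5 and 9361 in the wild-type (0.13), and rpl1802, with 6979 in SD5 and 7385 in the wild-type (0.12). The lowest was rpl1603 (SPOM_SPBC2G2.05), with 3439 in SD5 and 4085 in the wild-type (-0.045), also the dimmest member. Second lowest here was rpl1801 (SPOM_SPBC11C11.07), with 8839 in SD5 and 10396 in the wild-type (-0.031).

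Genes of this remaining group with no other copy named here included rpl13 and rpl14. The values of rpl13 were 8148 in SD5 and 8729 in the wild-type (0.10), and those of rpl14 were 6512 in SD5 and 7103 in the wild-type (0.078). Further single genes were rpl6, with 7921 in SD5 and 8821 in the wild-type (0.048), rpl8, with 8354 in SD5 and 9082 in the wild-type (0.083), and rpl44, with 6614 in SD5 and 7487 in the wild-type (0.024). They lay within the range of the group, as did the copies of rpl7. Of these, rpl701 had 7386 in SD5 and 7846 in the wild-type (0.12) and rpl702 had 7539 in SD5 and 8299 in the wild-type (0.065). The copies of rpl36 were rpl3601, with 8285 in SD5 and 8770.4 in the wild-type (0.12), and rpl3602, with 7010.0 in SD5 and 7739 in the wild-type (0.060). The copies of rpl30, which in budding yeast represses the splicing of its own transcript, were rpl3002, with 5905 in SD5 and 6289 in the wild-type (0.11), and rpl3001, with 7475 in SD5 and 8138 in the wild-type (0.081).

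In this group rpl2701 was the brightest, with 10110.4 in SD5 and 11092 in the wild-type (0.069). The only member measured by 2 probe sets was rpl3702. Its probe sets gave 7197 and 6250 in SD5 against 7836 and 6752 in the wild-type, and ratios of 0.081 and 0.092.

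None of the 35 pairs of paralogs differed by 0.32 in log2 ratio. Some pairs share a gene, since 4 proteins have 3 copies. The difference in log2 ratio between paralogs had a median of 0.060 and ran from 0.0021 to 0.15, and 14 pairs differed by less than 0.05. Pairs of members from different proteins, 2666 in all, had a median difference of 0.041. For the 7 genes of the array with several probe sets of a mean signal over 256, the median difference between probe sets of 1 gene was 0.020 and the widest 0.17. That minimum lies far below the members' signals, and ratios of dimmer probe sets spread more, so these values are no yardstick for the paralogs. Probes of near-identical paralogs can also bind each other's RNA, and how far they do was not tested, since no probe or gene sequences were used here.

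The widest difference was that between rpl1802 (0.12) and rpl1801 (-0.031), a ratio of ratios of 1.11-fold. It was followed by rpl801 over rpl802 (0.13), rpl2402 over rpl2401 (0.12), rpl1602 over rpl1603 (0.11), rpl3401 over rpl3402 (0.11) and rpp201 over rpp202 (0.11). Of the genes not given so far, rpl1601 had 7514 in SD5 and 8625 in the wild-type (0.0041), rpl1602 had 7653 in SD5 and 8410 in the wild-type (0.067), and rpl3402 had 5503 in SD5 and 6017 in the wild-type (0.074). In 23 of the 27 proteins with several paralogs all copies lay above 0. The other 4, with the symbols rpl16, rpl18, rpl23 and rpl801 to rpl803, had copies on either side of 0. After loess 16 of the 27 proteins had copies on either side, and 2, rpl23 among them, had all copies below 0. After quantile normalization 13 had copies on either side and 3 had all copies below 0. The copy with the higher ratio was the same in all 35 pairs after loess and in 33 after quantile normalization, but the size of the difference moved by up to 0.042 and 0.059. Between rpl1802 and rpl1801 it was 0.17 after loess and 0.18 after quantile normalization. Between rpl3401 and rpl3402 it was 0.085 after loess and 0.068 after quantile normalization, and between rpl401 and rpl402, at 0.034 after centring, it was 0.066 and 0.093.

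At the other end, rpl2101 and rpl2102 had ratios of 0.092 and 0.094, although rpl2101 had signals of 8777 in SD5 and 9480.0 in the wild-type and rpl2102 had 6647 in SD5 and 7168 in the wild-type. After loess they differed by 0.018 and after quantile normalization by 0.032. The pair rpl3801 (0.099) and rpl3802 (0.11) differed by 0.0080, a difference whose sign turned after quantile normalization (-0.025, rpl3802 minus rpl3801). The pair rpl2801 (0.051) and rpl2802 (0.065) differed by 0.014. Which paralog of a pair had the brighter probe set was the same in both arrays for 32 of the 35 pairs. The exceptions were rpl2401 and rpl2402, rpl1601 and rpl1602, and rpl3201 and rpl3202. The brighter of these in SD5 were rpl2402, rpl1602 and rpl3202, and the brighter in the wild-type were rpl2401, rpl1601 and rpl3201.

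**Figure D2:**
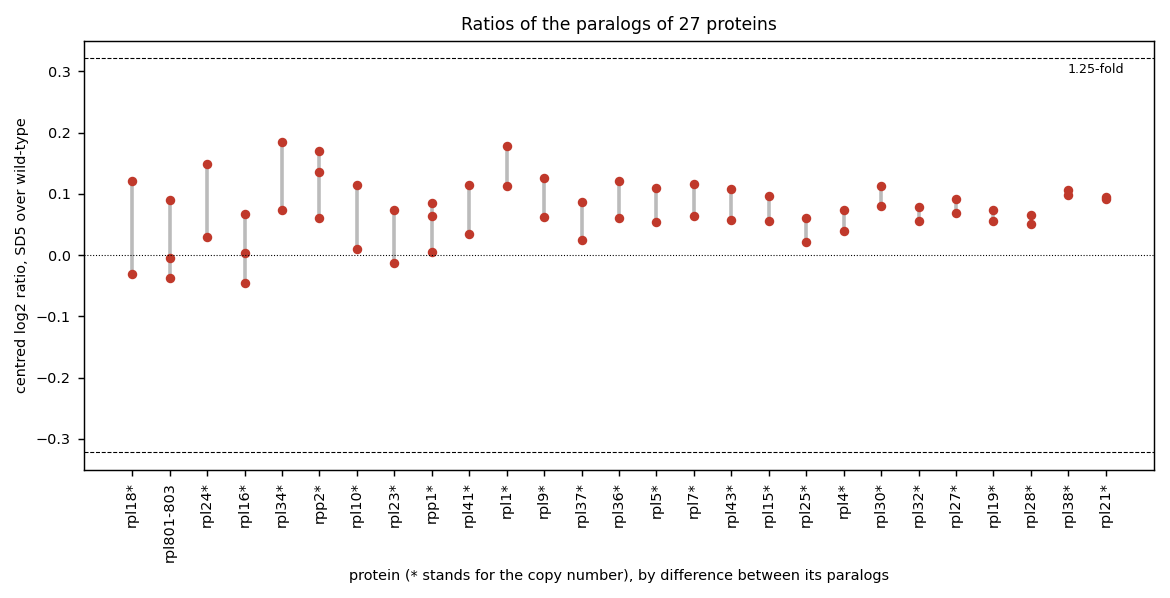
Centred log2 ratio of SD5 over wild-type (vertical axis) for each gene of the 27 proteins with several paralogs, 1 point per gene, ordered from the widest to the narrowest difference, with dashed lines at a log2 ratio of 0.32 in either direction. The points of rpl18 lie at 0.12 and -0.031, those of rpl21 at 0.092 and 0.094, and no point reaches a dashed line.

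The centred ratio moved with signal over all probe sets, first down and then up, and the members lie at the bright end. The S. pombe probe sets that are not members had a median log2 ratio of 0.094 at mean signals of 32 to 64 (79 probe sets). The median was -0.026 at 256 to 512 and -0.025 at 512 to 1024. It was 0.037 at 4096 to 8192 over 417 probe sets, and 0.073 above 8192 over 55 probe sets. The 37 member probe sets at 4096 to 8192 had a median of 0.065, and 27 of them were above the 0.037 of the others. Above 8192 the 37 member probe sets had a median of 0.079, and 21 were above the 0.073 of the others. Without probe sets that carry ribosomal protein symbols, the others had medians of 0.034 (388 probe sets) and 0.073 (31 probe sets). The part of signal in the members' ratios was not tested further, and the median after loess normalization is given above.

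The spread of ratios was narrow at these signals. Its robust standard deviation was 0.038 over the other probe sets above 8192 and 0.037 over the members there, against 0.11 for other probe sets at 512 to 1024. It is a spread between probe sets within 1 pair of arrays and no replicate error.

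**Figure D3:**
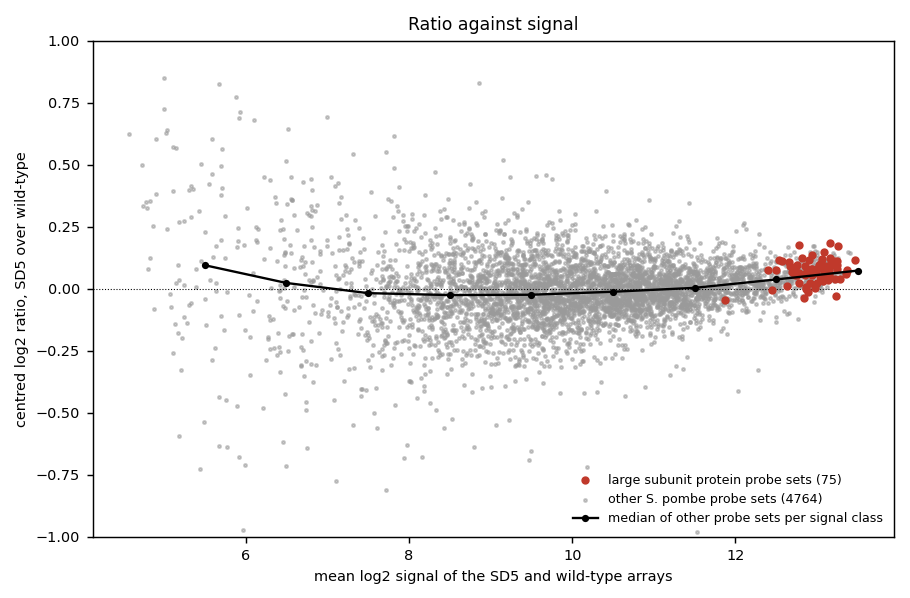
Centred log2 ratio of SD5 over wild-type (vertical axis) against the mean log2 signal of both arrays (horizontal axis) for 75 probe sets of large subunit protein genes (red) and 4764 other S. pombe probe sets above background in both arrays (grey), leaving out 8 others beyond 2-fold. The black line joins the medians of the other probe sets per signal class. It falls from 0.094 at signals of 32 to 64 to -0.026 at 256 to 512. From there it rises to 0.073 above 8192, where the members have a median of 0.079.

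Small subunit protein genes, which are as bright, had nearly the same ratios. Their 45 genes had a median of 0.073 with 43 above 0 (0.010 and 30 after loess, 0.0042 and 24 after quantile normalization), against 0.070 with 68 of 74 above 0 for the large subunit. Their range was -0.044 to 0.15, between rps403 and rps13, and none of the 45 reached 0.32.

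Factors that build the large subunit and carry it out of the nucleus had a lower median than the members after centring and after loess, and a higher one after quantile normalization. Of 49 listed symbols, 18 had a ratio, with a median of 0.021 (-0.0012 after loess, 0.0053 after quantile normalization), 12 above 0 (9 after either), and none at 0.32. A listed symbol without a ratio, here and below, is not a gene shown to lack signal, since the array need not name it singly. The lowest were grn1, with 3358 in SD5 and 4051 in the wild-type (-0.067), and rlp24, with 3958 in SD5 and 4708 in the wild-type (-0.047). The gene lsg1, which encodes a cytoplasmic GTPase of late maturation, had 1096 in SD5 and 1186 in the wild-type (0.089). The highest was nog1, also a GTPase gene, with 1158 in SD5 and 1199.9 in the wild-type (0.15).

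Regulators of ribosomal protein genes and of Tor, the kinase that couples growth to nutrients, were dimmer and more spread. Of 13 listed symbols 11 had a ratio, with a median of -0.079 and 8 below 0. The median was -0.059 after loess, -0.014 after quantile normalization and -0.034 with the background as a pseudocount, with 7 below 0 under each. After centring 1 gene was lower in SD5 by 0.32 or more, beside 2.71% of all probe sets. It was sfp1, whose symbol is that of a budding yeast activator of ribosomal protein genes, with 642 in SD5 and 932 in the wild-type (-0.33). The next lowest was mip1, which encodes the Raptor-like partner of Tor, with 687 in SD5 and 936 in the wild-type (-0.24). At the other end were the kinase gene psk1, with 1122 in SD5 and 1198 in the wild-type (0.11), and rrn7, with 1286 in SD5 and 1315 in the wild-type (0.17), a factor known to bind the HomolD box, the promoter element of fission yeast ribosomal protein genes. Of 7 symbols listed as chaperones 2 had a ratio, egd2 (9228 in SD5 and 10125 in the wild-type, 0.069) and zuo1 (4799 in SD5 and 5445 in the wild-type, 0.021). Both encode chaperones of new protein chains in general, and no chaperone dedicated to ribosomal proteins had a ratio here.

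**Figure D4:**
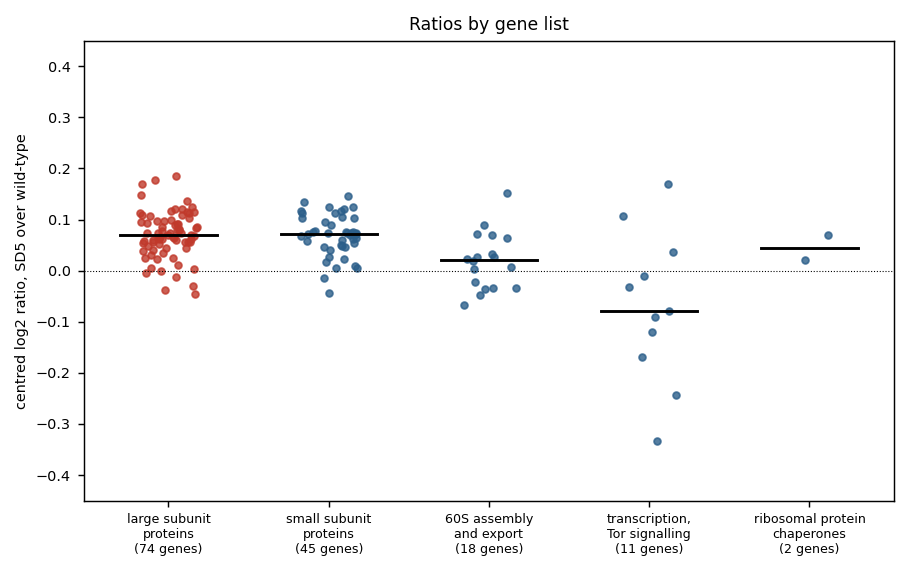
Centred log2 ratio of SD5 over wild-type (vertical axis) for each gene of 5 lists, with black bars at the medians and random sideways shifts. The 74 large subunit genes (red, median 0.070) and the 45 small subunit genes (median 0.073) overlap, and sfp1 is the lowest point at -0.33. The list labelled ribosomal protein chaperones holds only egd2 and zuo1, which serve new protein chains in general.

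Of the 74 members 8 (10.8%) lay within 100 protein-coding genes of a chromosome end, against 600 of the 5113 protein-coding genes of the reference (11.7%). On chromosomes I and II, with 56 members, the member closest to an end by gene order in the reference assembly ASM294v3 was the 59th protein-coding gene, rpl4101, on the right arm of chromosome I. On chromosome III, with 18 members, rpp103 was 12th from the right end, and the adjacent genes rpl35 and rpl902 were 23rd and 24th from the left end. These had ratios of 0.065, 0.041 and 0.13. The 8 members within 100 genes of an end lay between 0.034 and 0.15. By chromosome the median was 0.081 over 27 genes on I, 0.061 over 29 on II and 0.066 over 18 on III. Of the 6 members below 0, 5 were on II and 1 on III. After loess 8 of 29 below 0 were on I, 14 on II and 7 on III, and after quantile normalization 9 of 33 were on I, 17 on II and 7 on III. Across the 74 genes Spearman's rho between the ratio and the number of genes from the nearer end was 0.052, a description over genes that share the same 2 arrays.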

How the data were processed

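Polyadenylated RNA of SD5 and of the wild-type was hybridised to 1 array each, after labelling with a 3′ IVT kit from 5 ng, per the labels' protocols. The deposited table gives 1 linear intensity per probe set and array in 10928 rows, and the 5748 rows at 0 in both arrays were left out. GCOS 1.4 is named per the submitters' processing notes; for the probe summary, scaling and genome build, the sources used here give nothing. Symbols came from the platform's table and were updated through gene identifiers of the reference ASM294v3, which all 74 members matched. The label of 1 member differed (rpl35a, now rpl35A01).

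The 79 control and reporter probe sets were picked by name, and whether they match S. pombe transcripts was not checked. As background of an array served their 95th percentile. Lower signals were set to it, the median log2 ratio over S. pombe probe sets exceeding it in each array was subtracted, and a gene's ratio was the mean over its probe sets. A ratio against a signal below background counted only as a bound pointing its own way, which left 4905 probe sets. With 1 array per strain the number of arrays limits the precision, and no test was made. Samples were grouped by their labels. Members, lists and fold sizes were chosen with earlier results of these data known. Values are given for the 6 highest and 6 lowest ratios, the 3 brightest and 3 dimmest members, the 6 proteins with the widest and 4 with the narrowest paralog difference, the stalk P proteins, the 3 members nearest an end and up to 2 genes at each end of the other lists. Other members shown for their role were named after their values were seen. The protein of rpl8 was kept apart from that of rpl801 to rpl803, and rpl15 was paired with rpl1502. The planned promoter motifs and protein identities were not computed, since no sequences were used here. Calculations used Python 3.11.15, numpy 2.4.6, pandas 2.3.3 and statsmodels 0.14.6. The ratio step was tested on simulated data whose changes all exceeded 2-fold, without a trend of the ratio with signal. Differences as small as those of the members were not simulated.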

Additional observations from a re-analysis of the deposited data

How the results depend on the processing

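With 1 array per strain, 8 alternatives bear on the processing alone. No paired analysis was possible because each strain has 1 array. Under all 8 no member reached a log2 ratio of 0.32 in either direction, nor 2-fold. The median log2 ratio of the members, 0.070, was -0.13 without centring, 0.0063 after loess normalization, 0.0024 after quantile normalization and 0.017 with centring on 27 hybridisation controls. The number of members above 0, 68, was 0 without centring, 45 after loess and 38 after quantile normalization, and 54 with hybridisation controls. With the background at the 10th percentile, the background as a pseudocount, the brightest probe set of each gene or without suffixed probe sets the median lay between 0.051 and 0.070 and the count between 65 and 69. The median difference between paralogs lay between 0.056 and 0.062 under all 8, but several of these could not change it. Leaving out centring, centring on hybridisation controls and the background at the 10th percentile shift every member's ratio by the same amount. Taking the brightest probe set could alter only rpl3702. After loess the median difference was 0.062, and after quantile normalization 0.057. All 35 pairs kept the same paralog higher after loess and 33 after quantile normalization. Of the 6 highest and of the 6 lowest members, 5 each stayed so after loess and after quantile normalization. Over all S. pombe probe sets, 3 were 2-fold higher and 40 were 2-fold lower in SD5, against 14 higher and 33 lower after quantile normalization, and 0 higher and 14 lower with the background at the 10th percentile.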

Other observations

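Ribosomal RNA is not polyadenylated in its mature form, yet the array's control probe sets for it gave signals in both arrays. The 7 S. pombe rRNA control probe sets had signals between 969 and 6241 in SD5 and between 1217 and 7126 in the wild-type. Their centred log2 ratios had a median of -0.092 and ran from -0.18 to 0.012, with 5 below 0, while the large subunit protein genes had a median of 0.070. How much rRNA each sample held before the purification of polyadenylated RNA is not shown by these signals.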
